A study of Mus musculus with 10 samples.

Results

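The 10 genes *Pcdhb2* to *Pcdhb11* make up the proximal stretch of the beta protocadherin array on mouse chromosome 18. They were taken by symbol and by position, a rule in which no measured level enters, from the 22 beta protocadherin genes and from 54532 genes in all in the count files. RNA was sequenced from nuclei of adult C57BL/6J brains that had been sorted for NeuN, the neuronal nuclear antigen encoded by *Rbfox3*. Each of the 10 libraries was named as a separate replicate. The control group held 5 libraries from mice without the *Nestin*-Cre transgene, replicates 1 to 3 with genotype Mphosph8 fl/fl and replicates 4 and 5 with genotype Morc2a fl/fl. The Mphosph8 Δ/Δn group held 3 libraries (Mphosph8 fl/fl with *Nestin*-Cre) and the Morc2a Δ/Δn group held 2 (Morc2a fl/fl with *Nestin*-Cre). *Nestin* drives Cre in precursors of the nervous system, so that the floxed exon is removed in neurons and in glia. Only the knockout groups carried Cre, so Cre itself and the loss of the gene cannot be told apart here. The groups compared shared their controls, and the p-values measure the spread between these libraries, which the sources used here do not tie to named litters.

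Clustered protocadherins are cell adhesion proteins that bind copies of themselves on neighbouring membranes, and through this recognition the branches of one neuron avoid each other. Every gene of the array has a promoter of its own, and which promoters are in use varies from cell to cell. Methylation of DNA and of lysine 9 of histone H3 is found at promoters that are not in use. A beta gene encodes its whole protein in a single exon, without the constant exons that alpha and gamma genes share. MPP8, the product of *Mphosph8*, is the subunit of the HUSH silencing complex that reads histone H3 lysine 9 trimethylation, and MORC2A is an ATPase that works with the complex to compact chromatin. All members are of one kind, so they are described here in their order along the array rather than by separate roles.

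In GRCm38 the 10 genes lay on the plus strand of chromosome 18 within the region from 37294812 (start of *Pcdhb2*) to 37425836 (end of *Pcdhb11*). Each was annotated as a single exonic stretch of 2813 to 4419 bases, and none shared an exonic base with another gene. *Pcdhb8* and *Pcdhb9* were separated by 42250 bases, whereas the other neighbours were 2869 to 10005 bases apart. The coding sequences were 75.5% to 89.7% identical over the 45 pairs of members (median 77.6%). The closest pairs were *Pcdhb7* with *Pcdhb9* and *Pcdhb6* with *Pcdhb8*. Windows of 50 bases that occurred in no other annotated transcript made up 90.5% (*Pcdhb11*) to 97.9% (*Pcdhb2*) of each gene. *Pcdhb6* and *Pcdhb8* had 160 windows in common, *Pcdhb7* and *Pcdhb9* had 189, and *Pcdhb11* had 239 in common with *Pcdhb12*, the next gene of the array. How the counting treated reads from such shared windows was not given in the sources used here, so values of these pairs are uncertain to that extent.

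The libraries held 6686038 to 10764555 counts on genes, so that 3 counts, taken as the floor for counting error alone, corresponded to 0.281 to 0.446 CPM. CPM are read counts divided by the size of their library, which was scaled with TMM factors. *Rbfox3* was present at 150 to 304 CPM in every library. Whole-gene counts of the targeted genes did not bear out the labels. These counts include the exons that remain after removal of the floxed exon 4. The paper states, however, that this removal subjects the mRNA to decay. *Mphosph8* had 32.2 to 49.0 CPM in the control and 18.8 to 37.2 CPM in the Mphosph8 Δ/Δn libraries, and *Morc2a* had 122 to 163 CPM in the control and 215 to 223 CPM in the Morc2a Δ/Δn libraries. Levels of *Mphosph8* thus overlapped, and *Morc2a* was above every control in both libraries of its own knockout (fitted log2 fold change 0.64). The cause was not tested, and the knockouts are named by their labels throughout. Summed levels of 7 midbrain and hindbrain markers were 124 to 138 CPM in Mphosph8 Δ/Δn, 86.1 to 104 CPM in the control and 77.8 to 91.7 CPM in Morc2a Δ/Δn, and those of 6 cerebellar granule cell markers were 106 to 451, 54.3 to 521 and 49.9 to 57.9 CPM. Striatal markers summed to 1293 to 1506 CPM in the control, 960 to 1257 CPM in Mphosph8 Δ/Δn and 1005 to 1277 CPM in Morc2a Δ/Δn. In Morc2a Δ/Δn, the summed markers of neurons (3432 to 4017 against 4115 to 4793 CPM in the control) were also lower in both libraries. So were the sums for inhibitory neurons (899 to 976 against 980 to 1431 CPM) and oligodendrocytes (487 to 599 against 666 to 840 CPM). Single markers did not all go with these sums. In Morc2a Δ/Δn the log2 fold change against all controls was above 0 for 3 of 6 neuron and 2 of 5 oligodendrocyte markers. It was above 0 for 0 of 5 inhibitory and 0 of 5 excitatory markers. For midbrain and hindbrain, cerebellar granule and striatal markers tested it was so for 2 of 7, 0 of 6 and 1 of 5. In Mphosph8 Δ/Δn the numbers for these last 3 lists were 7 of 7, 6 of 6 and 0 of 5. The part of brain region and of cell makeup in the results that follow was not tested. In such sorted pools, more cells that transcribe a gene and more RNA per cell cannot be told apart.

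The first question was which members differed between each knockout and the control. In Mphosph8 Δ/Δn, *Pcdhb6*, *Pcdhb7*, *Pcdhb8* and *Pcdhb11* rose, 4 of the 10 members. *Pcdhb6* also rose in Morc2a Δ/Δn. Over all 18573 genes tested, 0.0969% rose in the former comparison and 0.0377% in the latter. A gene counted as risen or fallen when edgeR's quasi-likelihood test gave an adjusted p below 0.05 over all genes and the change was above 2-fold. All 10 members passed the filter on low counts and none fell in either knockout. The median log2 fold change of the members was 1.11 with loss of *Mphosph8* and 0.54 with loss of *Morc2a*, and that of all genes was -0.01 in both comparisons. Leaving out 1 library moved the members' median between 1.01 and 1.33 for Mphosph8 Δ/Δn and between 0.33 (without control replicate 4) and 0.78 for Morc2a Δ/Δn. Against only the controls of the same floxed line, the medians were 0.78 for Mphosph8 Δ/Δn and 0.85 for Morc2a Δ/Δn.

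*Pcdhb6* and *Pcdhb8* showed the largest rises. *Pcdhb6* had 3.64, 10.4, 6.74, 4.06 and 2.67 CPM in control replicates 1 to 5. It had 49.9, 46.9 and 41.1 CPM in the Mphosph8 Δ/Δn replicates and 32.7 and 22.0 CPM in the Morc2a Δ/Δn replicates. Every knockout library was above every control library, and the Mphosph8 Δ/Δn libraries were above both Morc2a Δ/Δn libraries. The group means were 5.51 ± 3.14 CPM (SD, n = 5), 46.0 ± 4.47 CPM (SD, n = 3) and 27.3 ± 7.56 CPM (SD, n = 2). The fitted level rose 8.20-fold in Mphosph8 Δ/Δn (log2 fold change 3.04 ± 0.33, edgeR adjusted p = 2.81e-04) and 4.88-fold in Morc2a Δ/Δn (log2 fold change 2.29 ± 0.36, edgeR adjusted p = 0.0174). Fitted log2 values are given ± their standard error throughout.

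*Pcdhb8*, the closest relative of *Pcdhb6* in coding sequence, had 12.2, 4.98, 13.9, 7.32 and 2.38 CPM in control replicates 1 to 5. It had 65.4, 67.7 and 53.3 CPM in Mphosph8 Δ/Δn and 36.6 and 31.5 CPM in Morc2a Δ/Δn. The 3 groups did not overlap. Its change in Mphosph8 Δ/Δn was 7.56-fold (log2 fold change 2.92 ± 0.35, edgeR adjusted p = 9.11e-04). The log2 fold change of *Pcdhb8* with loss of *Morc2a* was 2.05 ± 0.38, just outside the threshold (edgeR adjusted p = 0.0528). It was past the threshold by DESeq2 (adjusted p = 3.52e-04) and limma-voom (adjusted p = 0.0158), and also, with edgeR, when control replicate 3 (adjusted p = 0.0270) or 5 (0.0225) was left out. It did not pass when control replicate 1, 2 or 4 was left out (edgeR adjusted p = 0.0591, 0.119 and 0.0741). Nor did it pass when a Mphosph8 Δ/Δn library was left out (edgeR adjusted p between 0.0718 and 0.0960) or with only the 2 groups compared (0.150). Leaving out the first or the second Morc2a Δ/Δn library leaves a single one in that group. The log2 fold change of *Pcdhb8* was then 1.94 and 2.15, and it did not pass.

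*Pcdhb7*, which lies between these genes, was the least variable member among the controls. It had 15.2, 19.5, 18.6, 20.9 and 15.6 CPM in control replicates 1 to 5, a coefficient of variation of 13.9%, whereas those of the other 9 members were 38.0% to 140%. The Mphosph8 Δ/Δn replicates had 50.1, 42.5 and 50.9 CPM and the Morc2a Δ/Δn replicates 29.3 and 38.6 CPM, again above every control. The rise in Mphosph8 Δ/Δn was 2.66-fold (log2 fold change 1.41 ± 0.19, edgeR adjusted p = 0.00391). The log2 fold change was 0.92 ± 0.22 with loss of *Morc2a* and did not pass (edgeR adjusted p = 0.123). By DESeq2 (adjusted p = 0.00679) and by edgeR with no filter (adjusted p = 0.0417) it failed only because the change was under 2-fold. By limma-voom the adjusted p was 0.128.

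*Pcdhb11*, the last gene of the stretch, had 6.64, 9.66, 13.4, 6.53 and 15.1 CPM in control replicates 1 to 5. Its Mphosph8 Δ/Δn replicates lay close together at 31.9, 34.5 and 31.8 CPM, all above the controls. The rise was 3.19-fold (log2 fold change 1.67 ± 0.29, edgeR adjusted p = 0.0246). The log2 fold change stayed between 1.55 and 1.85 without any one library, but the call did not, since leaving out control replicate 1 or 2 raised the edgeR adjusted p to 0.0839 and 0.0586, and leaving out replicate 1, 2 or 3 of the Mphosph8 Δ/Δn group raised it to 0.135, 0.167 and 0.0909. With loss of *Morc2a*, *Pcdhb11* had 14.2 and 23.1 CPM, the lower of which was within the control range (log2 fold change 0.86 ± 0.33, edgeR adjusted p = 0.345). The calls of *Pcdhb6*, *Pcdhb7* and *Pcdhb8* in Mphosph8 Δ/Δn against all controls were kept without any one of the 10 libraries.

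The rise of *Pcdhb6* with loss of *Morc2a* depended on 4 libraries. The edgeR adjusted p became 0.0502 when control replicate 1 was dropped and 0.0549 when the second Mphosph8 Δ/Δn library was dropped, which enters through the shared estimate of spread. Dropping the first or the second Morc2a Δ/Δn library gave 0.104 and 0.0618. Its log2 fold change was between 1.98 and 2.66 in these and the other fits that left out 1 library. With a block for the replicate number, *Pcdhb6* was not past the threshold in Morc2a Δ/Δn (edgeR adjusted p = 0.0555) whereas *Pcdhb8* was (0.0467). That fit rested on control replicates 1 to 3, because the numbers 4 and 5 occur only in the control.

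**Figure D1:**
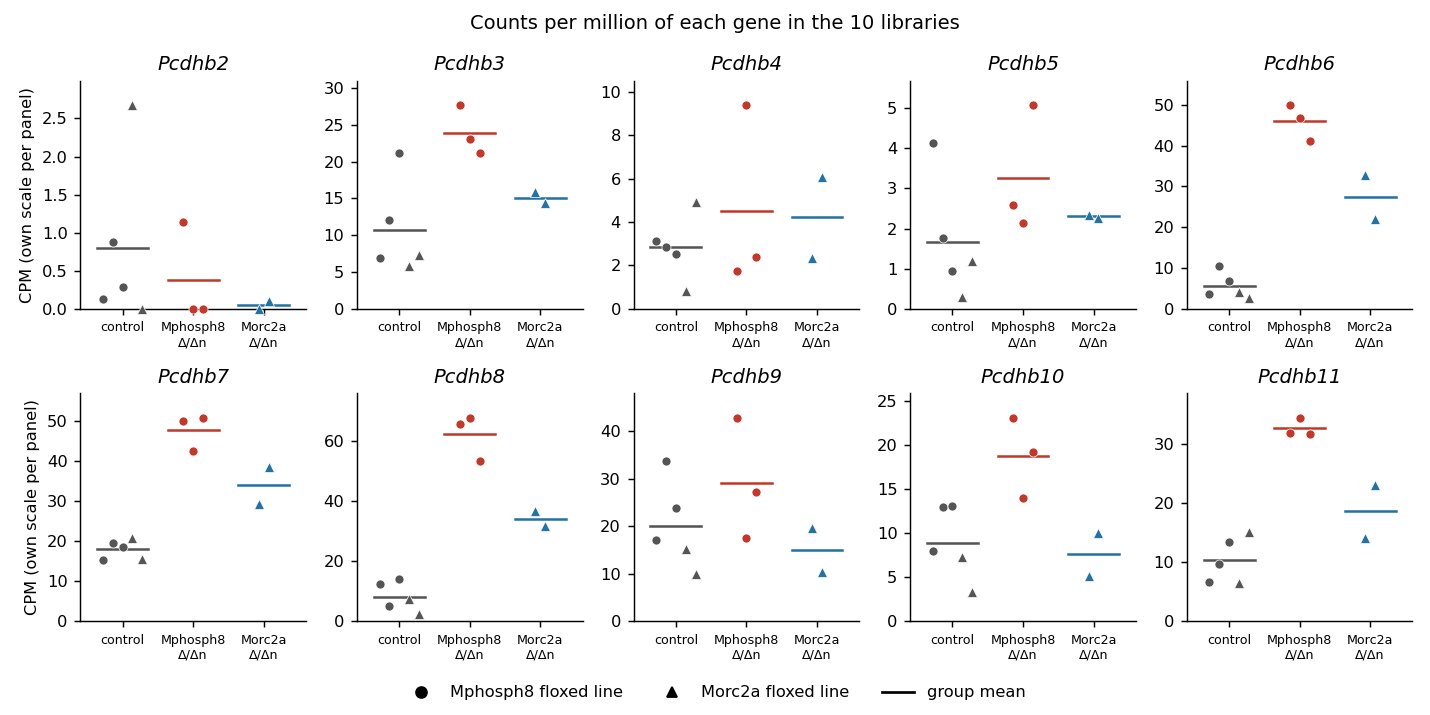
CPM of each gene in the 10 libraries (vertical axis, linear, with its own scale in each panel), by group. Circles are libraries of the Mphosph8 floxed line, triangles those of the Morc2a floxed line and bars are group means. All 5 knockout libraries lie above all 5 controls for *Pcdhb6*, *Pcdhb7* and *Pcdhb8*.

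*Pcdhb3* and *Pcdhb10* had Mphosph8 Δ/Δn libraries above all controls without passing the test. *Pcdhb3* had 6.89, 12.003, 21.2, 5.84 and 7.28 CPM in control replicates 1 to 5 and 27.6, 23.0 and 21.2 CPM in Mphosph8 Δ/Δn. Control replicate 3 was just under the lowest of these, 21.15 against 21.22 CPM. Its log2 fold change was 1.16 ± 0.35 (edgeR adjusted p = 0.655). *Pcdhb10* had 7.90, 12.98, 13.01, 7.22 and 3.27 CPM in the controls and 23.1, 13.9 and 19.1 CPM in Mphosph8 Δ/Δn, and the log2 fold change was 1.07 ± 0.38 (edgeR adjusted p = 0.788). With loss of *Morc2a*, *Pcdhb3* had 15.9 and 14.4 CPM and *Pcdhb10* had 5.11 and 10.02 CPM, within the range of the controls.

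*Pcdhb9* overlapped between all groups. It had 17.2, 33.7, 23.9, 15.2 and 9.80 CPM in control replicates 1 to 5, 42.9, 17.6 and 27.1 CPM in Mphosph8 Δ/Δn and 19.7 and 10.3 CPM in Morc2a Δ/Δn. Its log2 fold changes were 0.54 ± 0.35 (edgeR adjusted p = 0.957) and -0.42 ± 0.42 (edgeR adjusted p = 0.796). It stood 42250 bases downstream of *Pcdhb8* and was 89.7% identical in coding sequence to *Pcdhb7*, which rose in Mphosph8 Δ/Δn.

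*Pcdhb4* and *Pcdhb5* were low in all groups. *Pcdhb4* had 3.13, 2.83, 2.53, 0.792 and 4.90 CPM in the controls, 1.76, 9.38 and 2.38 CPM in Mphosph8 Δ/Δn and 2.34 and 6.09 CPM in Morc2a Δ/Δn. A single Mphosph8 Δ/Δn library, replicate 2 with 97 counts, was high, and without it the log2 fold change of *Pcdhb4* went from 0.68 to -0.44. *Pcdhb5* had 4.14, 1.76, 0.936, 0.297 and 1.19 CPM in the controls, 2.59, 2.13 and 5.07 CPM in Mphosph8 Δ/Δn and 2.34 and 2.27 CPM in Morc2a Δ/Δn. Its log2 fold changes were 0.97 ± 0.74 and 0.48 ± 0.85, so that no difference was detectable at this depth (edgeR adjusted p = 0.973 and 0.904).

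*Pcdhb2*, the first gene of the stretch, was near the floor. It had 1, 9, 3, 27 and 0 counts in control replicates 1 to 5, 11, 0 and 0 counts in Mphosph8 Δ/Δn and 0 and 1 counts in Morc2a Δ/Δn. The counts came mostly from control replicate 4 and Mphosph8 Δ/Δn replicate 1, and no fold change is given because most of the libraries were at or under 3 counts. The edgeR adjusted p was 0.997 and 0.640 in the respective comparisons. Its fitted values entered the medians given here only as the lowest or the highest of the members tested. Without control replicate 4 or without Mphosph8 Δ/Δn replicate 1 it did not pass the filter. Medians from those fits are over 9 members.

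The Mphosph8 Δ/Δn libraries lay above all controls for 6 members (*Pcdhb3*, *Pcdhb6*, *Pcdhb7*, *Pcdhb8*, *Pcdhb10* and *Pcdhb11*), against 2.31% of all genes tested. The Morc2a Δ/Δn libraries did so for 3 members (*Pcdhb6*, *Pcdhb7* and *Pcdhb8*), against 7.59% of all genes. No member had every knockout library below every control.

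Next, each knockout was set against own-line controls only, 3 libraries for Mphosph8 Δ/Δn and 2 for Morc2a Δ/Δn. In Mphosph8 Δ/Δn, *Pcdhb6*, *Pcdhb7* and *Pcdhb8* rose (3 of 10 members, against 0.0538% of all genes). Loss of *Morc2a* went with rises of *Pcdhb6* and *Pcdhb8* (2 of 10 members, again against 0.0377% of all genes). *Pcdhb6* changed by 2.71 ± 0.34 (edgeR adjusted p = 0.00212) and 3.00 ± 0.43 (edgeR adjusted p = 0.0104). *Pcdhb8* changed by 2.59 ± 0.36 (edgeR adjusted p = 0.00649) and 2.76 ± 0.46 (edgeR adjusted p = 0.0303), all on the log2 scale. By limma-voom the Morc2a Δ/Δn calls were lost (adjusted p = 0.131 for *Pcdhb6* and 0.132 for *Pcdhb8*), whereas DESeq2 kept both.

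These calls also depended on single libraries. In Morc2a Δ/Δn, *Pcdhb6* did not pass without control replicate 4 or 5 (edgeR adjusted p = 0.0919 and 0.118). The edgeR adjusted p of *Pcdhb8* rose to 0.182 when control replicate 5 was dropped, to 0.0783 and 0.0804 when the first or second Mphosph8 Δ/Δn library was dropped, and to 0.0561 when the first Morc2a Δ/Δn library was. Their log2 fold changes stayed between 2.69 and 3.34 and between 2.20 and 3.83. In Mphosph8 Δ/Δn, *Pcdhb6* and *Pcdhb8* passed without any one library, and *Pcdhb7* was lost without any one of the 6 libraries of its line (edgeR adjusted p between 0.0513 and 0.191). The cerebellar granule cell markers moved in these comparisons too. They summed to 106 to 451 CPM in Mphosph8 Δ/Δn against 54.3 to 83.3 CPM in its own-line controls, and to 49.9 to 57.9 CPM in Morc2a Δ/Δn against 69.4 to 521 CPM. All 6 had a positive log2 fold change in the former (median 2.54) and a negative one in the latter (median -2.76). Each had an unadjusted edgeR p below 0.05 in both comparisons. None was called by edgeR or limma-voom, whereas DESeq2 called 2 in Morc2a Δ/Δn and 0 in Mphosph8 Δ/Δn. The part of these markers in the own-line values was not tested.

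Against all controls the log2 fold changes of *Pcdhb6* and *Pcdhb8* were higher with loss of *Mphosph8* than with loss of *Morc2a*. Against own-line controls those of these 2 genes were slightly lower with loss of *Mphosph8*. *Pcdhb11* in Mphosph8 Δ/Δn had nearly the same log2 fold change as against all controls, 1.72 ± 0.34, but did not pass with fewer controls (edgeR adjusted p = 0.0948). It passed by DESeq2 (adjusted p = 8.62e-04) and limma-voom (adjusted p = 0.0435). When 1 library of its line was left out, the edgeR adjusted p was between 0.183 and 0.570. *Pcdhb7* in Mphosph8 Δ/Δn was also nearly unmoved at 1.43 ± 0.23 (edgeR adjusted p = 0.0255). *Pcdhb9* and *Pcdhb10* in Morc2a Δ/Δn changed sign, from -0.42 and -0.24 to 0.25 and 0.51, and passed in neither fit.

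Against own-line controls the Mphosph8 Δ/Δn libraries were above every control for the same 6 members (6.13% of all genes). The Morc2a Δ/Δn libraries were above both of theirs for 5, *Pcdhb3*, *Pcdhb5*, *Pcdhb6*, *Pcdhb7* and *Pcdhb8* (18.1% of all genes). *Pcdhb3* had 5.84 and 7.28 CPM in these controls, against 15.9 and 14.4 CPM in Morc2a Δ/Δn, and its log2 fold change of 1.21 ± 0.44 did not pass (edgeR adjusted p = 0.437).

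**Figure D2:**
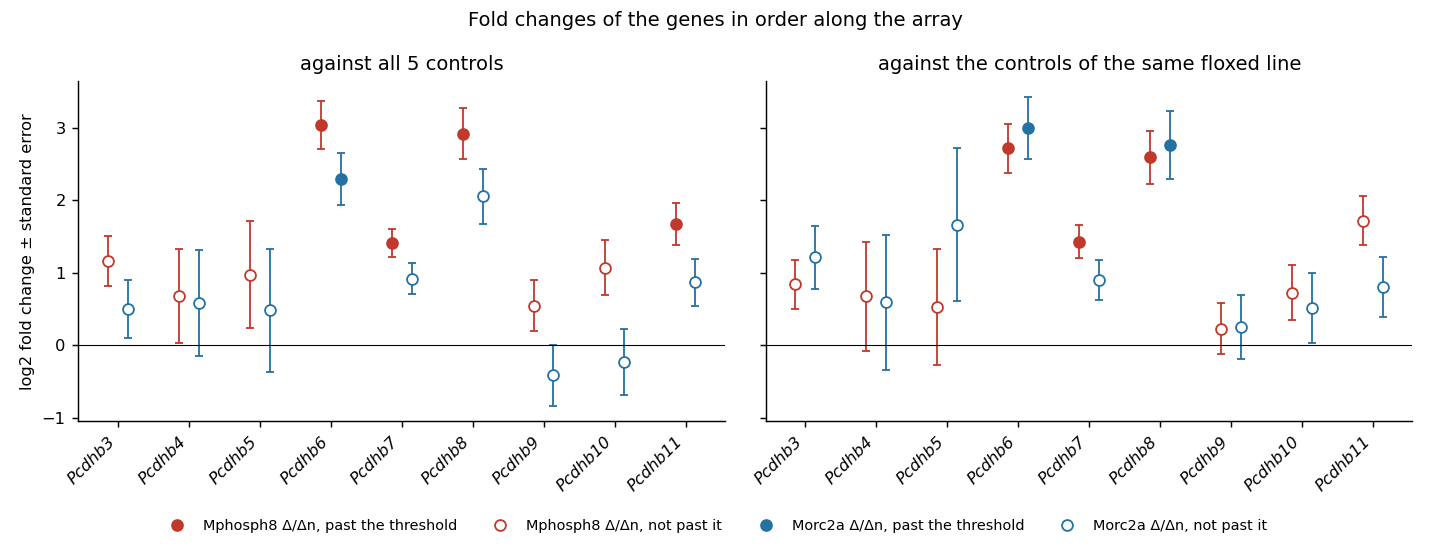
Log2 fold change ± standard error (vertical axis) of *Pcdhb3* to *Pcdhb11* in array order for Mphosph8 Δ/Δn (red) and Morc2a Δ/Δn (blue), against all 5 controls (left) and against the controls of the same floxed line (right). Filled points passed the threshold, and *Pcdhb2* is left out because of its low counts. *Pcdhb6* and *Pcdhb8* stand highest, at 3.04 and 2.92 in Mphosph8 Δ/Δn on the left.

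The control lines were then compared with each other. No member passed the threshold, against 0.129% of all genes tested that differed in either direction. At an unadjusted p below 0.05, edgeR gave 5 members (against 9.21% of all genes) and limma-voom 0. Without control replicate 5 edgeR gave 1, and without control replicate 2 or 3 it gave 2. No member was called by limma-voom or, among the 9 to which it gave an adjusted p, by DESeq2. The fitted log2 difference (Mphosph8 floxed minus Morc2a floxed controls) was 1.04 for *Pcdhb3*, 1.03 for *Pcdhb6*, 1.04 for *Pcdhb8*, 0.99 for *Pcdhb9* and 1.09 for *Pcdhb10*, with standard errors of 0.41 to 0.45 (edgeR adjusted p between 0.432 and 0.458). It was -0.04 for *Pcdhb7* (standard error 0.25), -0.11 for *Pcdhb11* (standard error 0.38) and 0.01 for *Pcdhb4* (standard error 0.85). The 3 Mphosph8 floxed controls lay above both Morc2a floxed controls for *Pcdhb9* and *Pcdhb10*, 2 of 10 members against 15.1% of all genes. The median difference of the members was 1.01 and fell to between 0.65 and 0.92 when any one of the 5 controls was left out.

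Between the knockouts, no member passed the threshold, against 0.0646% of all genes tested. Nor did limma-voom call any, or DESeq2 any of the 7 members to which it gave an adjusted p. All 10 members, *Pcdhb2* with its few counts included, had fitted log2 differences (Mphosph8 Δ/Δn minus Morc2a Δ/Δn) above 0, with a median of 0.78. The unadjusted edgeR p was below 0.05 for 2 of them, against 12.5% of all genes, *Pcdhb10* with 1.30 ± 0.51 (edgeR adjusted p = 0.293) and *Pcdhb11* with 0.81 ± 0.37 (edgeR adjusted p = 0.380). This count varied with the fit. By limma-voom it was 5 members, beside 1123 higher and 1318 lower genes of all 18573. By DESeq2 it was 4, beside 1556 and 1210 of the genes to which DESeq2 gave a p. With edgeR it was 0 without Mphosph8 Δ/Δn replicate 1 and 5 without control replicate 5. All 3 Mphosph8 Δ/Δn libraries were above both Morc2a Δ/Δn libraries for 6 members (*Pcdhb3*, *Pcdhb6*, *Pcdhb7*, *Pcdhb8*, *Pcdhb10* and *Pcdhb11*), against 14% of all genes. The knockouts came from different floxed lines, so line and deleted gene cannot be told apart in this comparison.

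The difference between the own-line effects (the change in Mphosph8 Δ/Δn minus that in Morc2a Δ/Δn) takes the line into account. No member passed, the share of all genes was 0%, and no member had an unadjusted p below 0.05 with edgeR. Neither limma-voom nor DESeq2, which gave an adjusted p to 9 members, called any. The median over the members was 0.03, and it was between -0.38 (without control replicate 4) and 0.24 (without control replicate 5) when 1 library was left out. The log2 difference was -0.28 for *Pcdhb6* (standard error 0.53), -0.17 for *Pcdhb8* (standard error 0.56), 0.53 for *Pcdhb7* (standard error 0.35) and 0.92 for *Pcdhb11* (standard error 0.53). The standard errors of the members other than *Pcdhb2* were 0.35 to 1.31, so that differences of either sign remain possible.

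The sum of the 10 members was 77.0, 109, 114, 70.8 and 62.2 CPM in control replicates 1 to 5. It was 296, 258 and 252 CPM in Mphosph8 Δ/Δn and 158.1 and 158.5 CPM in Morc2a Δ/Δn. The groups did not overlap. The mean log2 difference from the control was 1.67 for the former and 0.91 for the latter, and 1.44 and 1.25 against own-line controls. No test was made on the sum.

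*Pcdhb6* and *Pcdhb8* together made up 8.11% to 20.5% of the sum in the controls, 37.5% to 44.5% in Mphosph8 Δ/Δn and 33.8% to 43.8% in Morc2a Δ/Δn. They accounted for 51.9% of the rise of the mean sum in Mphosph8 Δ/Δn and 66.7% of it in Morc2a Δ/Δn. *Pcdhb7* added 16.4% and 22.3%, and *Pcdhb11* added 12.3% and 11.7%. Without *Pcdhb6* and *Pcdhb8*, the mean log2 difference of the sum of the other 8 members was 1.17 and 0.44.

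**Figure D3:**
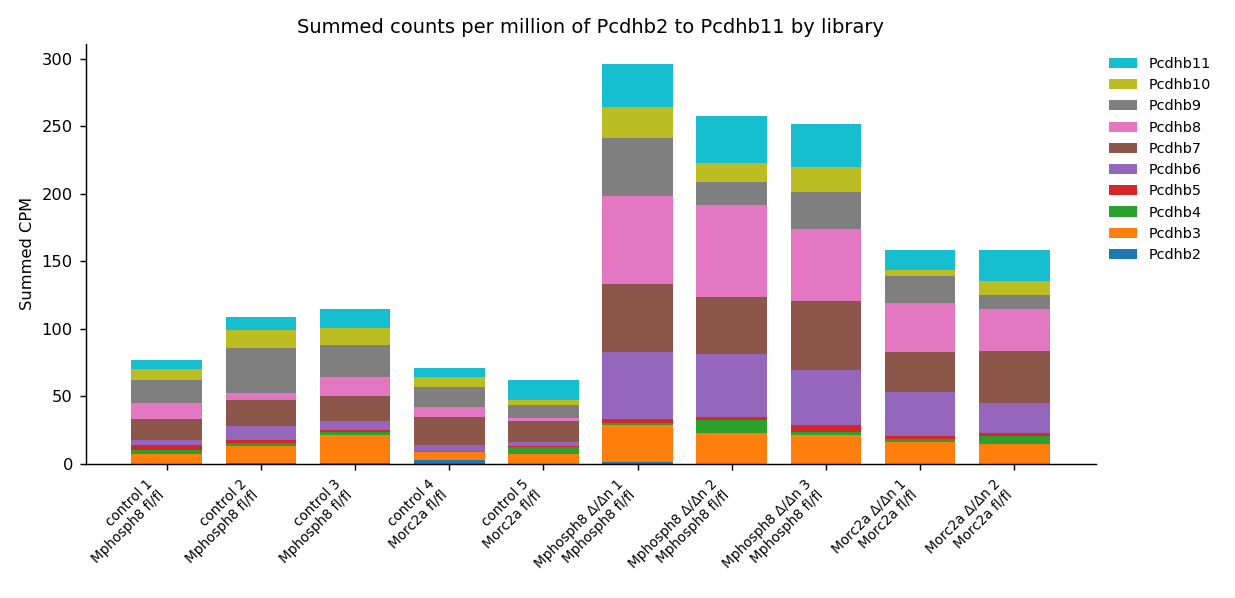
Summed CPM of the 10 genes in each library (vertical axis, from 0), stacked by gene with *Pcdhb2* at the bottom and *Pcdhb11* at the top. The label under each bar gives the group, the replicate and the floxed line. The sums are 62.2 to 114 CPM in the controls, 252 to 296 CPM in Mphosph8 Δ/Δn and about 158 CPM in Morc2a Δ/Δn.

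Levels were compared between members as CPM per kilobase of exon. In the control the order from high to low was *Pcdhb9* (6.53 ± 3.00, SD, n = 5), *Pcdhb7* (5.13 ± 0.71), *Pcdhb10*, *Pcdhb3*, *Pcdhb8*, *Pcdhb11*, *Pcdhb6* (1.47 ± 0.84), *Pcdhb4*, *Pcdhb5* and *Pcdhb2* (0.28 ± 0.39). No pair of neighbours in this order was separated by more than its spread, taken as the mean ± SD of each. In Mphosph8 Δ/Δn *Pcdhb8* stood first with 17.8 ± 2.22 CPM per kilobase (SD, n = 3), beyond the spread of *Pcdhb7* (13.7 ± 1.32), which was followed by *Pcdhb6* (12.2 ± 1.19) and *Pcdhb9* (9.55 ± 4.18). *Pcdhb3* (6.33 ± 0.87) was beyond the spread of *Pcdhb4* (1.21 ± 1.14). *Pcdhb2*, *Pcdhb4* and *Pcdhb5* had the 3 lowest means in all groups. In the control and in Morc2a Δ/Δn, however, *Pcdhb4* was not separated by more than the spread from the member above it.

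With loss of *Morc2a*, *Pcdhb8* (9.78 ± 1.04, SD, n = 2) and *Pcdhb7* (9.70 ± 1.89) were level, followed by *Pcdhb6* (7.29 ± 2.01) and *Pcdhb9* (4.92 ± 2.17) CPM per kilobase. *Pcdhb6* thus stood at rank 7 in the control and at rank 3 in both knockouts, and *Pcdhb8* at rank 5 in the control and rank 1 in both. The ranks were the same in all 3 groups when length was counted only in 50-base windows found in no other gene.

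**Figure D4:**
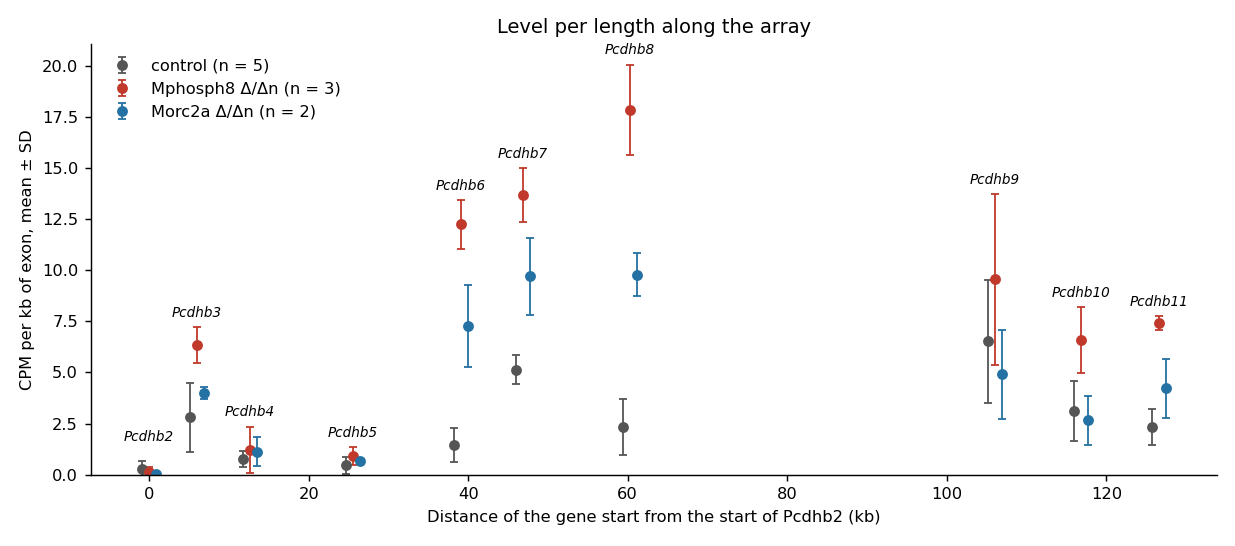
Mean CPM per kilobase of exon ± SD (vertical axis, linear) of each gene against the distance of its start from the start of *Pcdhb2* in kilobases, for control (n = 5), Mphosph8 Δ/Δn (n = 3) and Morc2a Δ/Δn (n = 2). Points of one gene are set slightly apart. The highest level is that of *Pcdhb8* in Mphosph8 Δ/Δn, 17.8 CPM per kilobase.

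The members made up 29.7% to 40.2% of the counts of all beta genes in the controls, 39.5% to 40.5% in Mphosph8 Δ/Δn and 35.0% to 37.3% in Morc2a Δ/Δn. Of the other 12 beta genes, 11 were tested, of which 5 rose in Mphosph8 Δ/Δn (*Pcdhb14*, *Pcdhb15*, *Pcdhb17*, *Pcdhb18* and *Pcdhb20*) and 1 in Morc2a Δ/Δn (*Pcdhb15*), with median log2 fold changes of 1.13 and 0.90. The summed level of the other 12 beta genes was 141 to 175 CPM in the control, 370 to 444 CPM in Mphosph8 Δ/Δn and 266 to 293 CPM in Morc2a Δ/Δn. Between the control lines their median log2 difference was 0.03, against 1.01 for the proximal members. It was 1.28 for the 9 alpha genes and 1.37 for the 19 gamma genes tested, and these gaps were not tested. The 9 alpha genes tested had median log2 fold changes of 0.19 and 0.23 and the 19 gamma genes tested 1.86 and 1.03, of which 3 gamma genes rose with loss of *Mphosph8*.

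At the borders of the stretch, *Pcdhb1*, the gene upstream of *Pcdhb2*, had 0 counts in all controls, 0 to 17 in Mphosph8 Δ/Δn and 0 to 1 in Morc2a Δ/Δn and was not tested. *Pcdhb12*, the gene downstream of *Pcdhb11*, had 9.62 ± 3.29 CPM in the control (SD, n = 5), 21.3 ± 2.80 CPM in Mphosph8 Δ/Δn (SD, n = 3) and 18.2 ± 2.13 CPM in Morc2a Δ/Δn (SD, n = 2). Its log2 fold changes of 1.14 and 0.91 did not pass (edgeR adjusted p = 0.323 and 0.308), and 63.5% of its exonic bases lie in another gene. *Pcdhb13*, the next gene, had 0.89 to 3.27 CPM in the control, and its log2 fold changes of 0.93 and 0.63 did not pass (edgeR adjusted p = 0.967 and 0.828).

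The genes whose pattern over the 10 libraries was most like that of the summed members were found by the root mean square difference of centred log2 CPM. In order they were *Pcdhb17* (0.17), *Pcdhga6* (0.22), *Pcdhb18* (0.27), *Pcdhb12* (0.27) and *Tchh* (0.27), against a median of 0.85 over the non-member genes tested. The first 4 belong to the same cluster, and *Pcdhga6* and *Pcdhb12* share exonic bases with other genes. *Tchh*, which encodes the structural protein trichohyalin of hair follicles and lies on chromosome 3, had 9.24 ± 2.47 CPM in the control (SD, n = 5), 27.2 ± 5.44 CPM in Mphosph8 Δ/Δn (SD, n = 3) and 19.0 ± 2.78 CPM in Morc2a Δ/Δn (SD, n = 2).

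Among the genes of the silencing pathway, none of the 7 tested of 8 listed (*Mphosph8*, *Fam208a*, *Pphln1*, *Morc2a*, *Setdb1*, *Atf7ip*, *Atf7ip2* and *Trim28*) passed, whether tested with edgeR, limma-voom or DESeq2. Their edgeR log2 fold changes ranged from -0.34 to 0.36 with loss of *Mphosph8* and from -0.37 to 0.64 with loss of *Morc2a*, and 1 and 3 of them had an unadjusted p below 0.05, against 5.67% and 10.7% of all genes. Of the 15 genes listed for protocadherin promoter choice, among them those of CTCF, cohesin and DNA methyltransferases, none passed by the same 3 tools, with edgeR log2 fold changes from -0.36 to 0.10 and from -0.51 to 0.30, and 0 and 1 had an unadjusted p below 0.05.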

How the data were processed

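Raw read counts per gene for 10 libraries were used as deposited. The authors made these counts from poly(A)-selected RNA of sorted nuclei. The submitters' processing notes name Trim Galore 0.5.0, Bowtie2 2.3.4.1, featureCounts of Subread 1.6.2 and the GRCm38 build. According to the paper, Bowtie2 served to remove reads of abundant sequences such as ribosomal DNA. The remaining reads were aligned to the genome with STAR. The strand setting and the treatment of reads with several matches are not given in the sources used here. Symbols, positions and exonic lengths were joined by Ensembl ID from GENCODE M21 (54495 of 54532 IDs matched).

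The rule for the members uses symbol and position, and both it and the gene lists were chosen with earlier results of these data known. Counts were tested with edgeR 4.0.16 (quasi-likelihood, TMM, filterByExpr, 3 groups, Benjamini-Hochberg over 18573 genes). A model with the controls split by floxed line gave the own-line values, their difference and the contrast of the control lines. Levels are CPM on TMM library sizes. The depth was 6686038 to 10764555 counts per library, which limits the genes with few counts. The standard error is the log2 fold change divided by the root of the F statistic. Scripts were tested on simulated data.

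The genes named are the 10 members, the border genes *Pcdhb1*, *Pcdhb12* and *Pcdhb13*, the label checks *Mphosph8*, *Morc2a* and *Rbfox3*, genes that passed or belong to lists of up to 8 genes, and the 5 non-members with the smallest root mean square difference of centred log2(CPM + 1) to the summed members. Alternatives were DESeq2 1.42.0, limma-voom (limma 3.58.1), other size factors and filters, a replicate block, own-line controls, only the groups compared, and leaving out each library. Same-numbered libraries of different groups did not deviate together (correlations of -0.03 to 0.04 over 7 pairs), and the numbers are treated as names only. No libraries of a group agreed within sampling noise (chi-square per degree of freedom 9.55 to 38.4 over 14 pairs). Of 55 markers tested from 11 lists (neurons, excitatory, inhibitory, striatal, cerebellar granule and midbrain and hindbrain neurons, astrocytes, oligodendrocytes, their precursors, microglia and endothelial cells), edgeR and limma-voom called 0 for either knockout, DESeq2 called 0 for Mphosph8 Δ/Δn and 3 for Morc2a Δ/Δn, and 4 and 13 had an unadjusted edgeR p below 0.05 against all controls.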

Additional observations from a re-analysis of the deposited data

How the results depend on the processing

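In Mphosph8 Δ/Δn, 3 to 5 members rose under every alternative run, and without any one library 3 or 4 did. In Morc2a Δ/Δn, 1 member rose in the main fit, 2 with no filter, with at least 10 counts in every library, with DESeq2, with limma-voom or with own-line controls, 0 with only the 2 groups compared, and 0 to 2 without any one library. Against own-line controls, alternatives chosen after seeing the data gave 3 or 4 members in Mphosph8 Δ/Δn, and 2 or 3 without any one library. In Morc2a Δ/Δn they gave 0 with limma-voom, 2 with the other settings, and 0 to 2 without any one library. *Pcdhb3* in Mphosph8 Δ/Δn passed with no filter alone (edgeR adjusted p = 0.0341).

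Without *Pcdhb6* and *Pcdhb8*, an alternative chosen after seeing the data, the sum of the members differed by 1.17 and 0.44 (log2) instead of 1.67 and 0.91. The Morc2a Δ/Δn libraries lay above all controls for 3 members, above own-line controls for 5, and for 3 to 5 without any one library. Signs changed in 5 fits, none of them past the threshold. Leaving out single libraries moved the log2 fold change of *Pcdhb4* between -0.44 and 1.06 for Mphosph8 Δ/Δn and between -0.27 and 1.11 for Morc2a Δ/Δn, and that of *Pcdhb10* between -0.81 and 0.17 for Morc2a Δ/Δn. With own-line controls, *Pcdhb9* and *Pcdhb10* in Morc2a Δ/Δn were at 0.25 and 0.51.

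With the replicate block, 4 members rose with loss of *Mphosph8* and 1 with loss of *Morc2a*, which was *Pcdhb8* (edgeR adjusted p = 0.0467) in place of *Pcdhb6* (0.0555), and 0 differed between the knockouts. The median log2 fold change of the members was then 0.86 with loss of *Mphosph8* and 0.27 with loss of *Morc2a*. The block could not be fitted with the controls split by line, because control replicates 4 and 5 have no partner there. In the fit that was made, the numbers 4 and 5 likewise occur only in the control. Its comparisons with the control therefore rested on control replicates 1 to 3, all of the Mphosph8 floxed line. The cause of the changes in this section was not tested.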
